A study of Mus musculus with 16 samples.

Results

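Acetylation of lysine 27 of histone H3 (H3K27ac), a mark of active promoters and enhancers, was examined near 40 genes of the lysosome and of the vacuolar proton pump (V-ATPase) in mouse bone marrow-derived macrophages (BMDMs). The 40 genes were a named list and were found among 21938 protein-coding genes with an annotated start site on mm10. A ChIP-seq peak was assigned to a gene when any of its bases lay within 10 kb of any annotated start site, and a peak within 1 kb was called a promoter peak. The macrophages were differentiated in culture, in medium with LCCM, from bone marrow of C57Bl6 mice aged 8 to 12 weeks. Control cells received neither agent, IFNγ cells received 100 ng/mL of the cytokine for 1 hour, PJ34 cells received 20 µM of this PARP inhibitor, and IFNγ+PJ34 cells received the inhibitor 1 hour before the same IFNγ treatment. Each condition had 2 H3K27ac replicates with input DNA, from which the authors made 1 list of the peaks shared by both, so the 4 lists carry no replicate spread and no comparison between them has a p-value. Whether the 2 replicates came from separate mice is not given in the sources used here.

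Lysosomes degrade material that macrophages take up, by means of acid hydrolases that work at low pH. The V-ATPase acidifies the lumen: its membrane-embedded V0 sector conducts protons, its cytoplasmic V1 sector hydrolyses ATP, and accessory subunits assist assembly. TFEB and TFE3 are basic helix-loop-helix transcription factors that bind a CACGTG-containing element, of which TCACGTGA is an extended form, in the promoters of many lysosomal genes.

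RefSeq promoter sequences (GRCm38.p6, from 250 bases before to 50 bases after a start site) were held for 33 of the 40 genes, in 41 windows. Ctsb, Ctsh, Npc1, Atp6v0d2, Atp6v1b2, Atp6v1c1 and Atp6v1h had no entry. The letters TCACGTGA were present in 6 of the 41 windows (14.6%, Clopper-Pearson 95% interval 5.57 to 29.2), against 0.974% of all 32851 promoter windows and 1.94% of the 10606 windows of genes with a promoter peak in all 4 lists. The shorter CACGTG, which lies within every TCACGTGA, was in 12 of 41 windows (29.3%, interval 16.1 to 45.5), against 7.15% and 10.3%. A different palindrome of the same base composition, CTCGAG, was in 0 of 41 (upper bound 8.60%), against 3.92% and 6.09%. All 3 words are palindromes, so each match stands for both strands. The 6 windows with TCACGTGA are shown because they carry this difference from other promoters. Capitals mark TCACGTGA and any further CACGTG, and each sequence is written 5′ to 3′ on the gene's strand.
Atp6v0d1: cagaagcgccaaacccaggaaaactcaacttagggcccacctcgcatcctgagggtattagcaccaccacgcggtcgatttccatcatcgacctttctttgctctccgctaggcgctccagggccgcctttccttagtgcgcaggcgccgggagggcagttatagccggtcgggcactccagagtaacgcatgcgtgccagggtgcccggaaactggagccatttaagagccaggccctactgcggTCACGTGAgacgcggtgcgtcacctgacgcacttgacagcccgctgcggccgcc
Atp6v0e: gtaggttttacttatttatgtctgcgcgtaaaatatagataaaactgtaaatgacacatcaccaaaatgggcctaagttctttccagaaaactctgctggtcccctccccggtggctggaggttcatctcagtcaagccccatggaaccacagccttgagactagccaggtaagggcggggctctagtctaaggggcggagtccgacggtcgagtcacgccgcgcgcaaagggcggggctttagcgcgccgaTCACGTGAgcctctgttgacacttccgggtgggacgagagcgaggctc
Ctsa: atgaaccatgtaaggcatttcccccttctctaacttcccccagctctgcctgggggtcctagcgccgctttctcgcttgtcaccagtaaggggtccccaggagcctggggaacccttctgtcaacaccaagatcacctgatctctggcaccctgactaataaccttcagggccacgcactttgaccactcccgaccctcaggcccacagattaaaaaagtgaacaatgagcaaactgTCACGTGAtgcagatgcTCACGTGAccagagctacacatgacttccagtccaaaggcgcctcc
Mcoln1: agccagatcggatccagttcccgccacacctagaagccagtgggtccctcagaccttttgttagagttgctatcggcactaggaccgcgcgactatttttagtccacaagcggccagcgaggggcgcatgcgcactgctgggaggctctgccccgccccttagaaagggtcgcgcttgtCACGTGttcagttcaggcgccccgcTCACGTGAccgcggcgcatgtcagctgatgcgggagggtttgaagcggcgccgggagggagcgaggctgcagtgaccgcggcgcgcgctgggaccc
Ctsd: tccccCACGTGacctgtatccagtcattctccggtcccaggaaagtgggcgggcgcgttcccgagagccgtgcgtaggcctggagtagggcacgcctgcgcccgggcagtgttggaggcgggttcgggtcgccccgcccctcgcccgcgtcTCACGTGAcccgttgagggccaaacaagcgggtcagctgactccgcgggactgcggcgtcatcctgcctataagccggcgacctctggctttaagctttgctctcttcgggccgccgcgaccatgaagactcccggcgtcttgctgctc
Atp6v1a: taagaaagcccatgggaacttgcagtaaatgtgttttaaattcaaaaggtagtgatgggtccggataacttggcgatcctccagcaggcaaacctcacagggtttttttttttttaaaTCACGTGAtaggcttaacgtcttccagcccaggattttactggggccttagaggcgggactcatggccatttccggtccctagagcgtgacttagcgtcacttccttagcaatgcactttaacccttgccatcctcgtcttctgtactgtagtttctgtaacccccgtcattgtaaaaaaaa
These windows lie at chr8:105566015-105566314 on the minus strand for Atp6v0d1, chr17:26676146-26676445 on the plus strand for Atp6v0e, chr2:164833523-164833822 on the plus strand for Ctsa, chr8:3500269-3500568 on the plus strand for Mcoln1, chr7:142387778-142388077 on the minus strand for Ctsd and chr16:44139210-44139509 on the minus strand for Atp6v1a. The CACGTG core began 3 bases upstream of the start site in Atp6v0d1, which encodes a V0 d subunit, and 3 bases downstream in Atp6v0e, another V0 subunit. Ctsa, encoding the protective protein cathepsin A, held 2 copies of TCACGTGA, 12 bases upstream and 5 bases downstream. In all 6 genes each TCACGTGA lay inside an H3K27ac peak in all 4 lists. Lamp1, which with Lamp2 encodes the most abundant lysosomal membrane glycoproteins, held 4 copies of CACGTG between 61 and 15 bases upstream. The outermost of these lay inside a peak in 2 lists and the innermost in 4. The single CACGTG of Gaa, the acid alpha-glucosidase gene, lay 140 bases upstream and inside a peak in 0 lists. The 12 genes with CACGTG and the 21 without it overlapped widely in their top peaks' rank, with Control medians of 97.0 (interval 90.5 to 99.6) and 95.7 (91.8 to 98.8). Their median covered length within 10 kb lay further apart, at 4168.5 bp (2522 to 9314) and 7726 bp (5714 to 11446) in Control. It was lower with CACGTG in the other lists too, at 2725 against 5806 bp (IFNγ), 3540.5 against 7974 bp (PJ34) and 2508.5 against 7351 bp (IFNγ+PJ34). The intervals overlapped in every list.

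All 40 genes had a peak within 10 kb in each of the 4 lists. Over all protein-coding genes the share was 57.3% for Control, 55.9% for IFNγ, 57.0% for PJ34 and 56.6% for IFNγ+PJ34. A promoter peak was present in all 4 lists for all 40, against 47.8% of all genes, and 35 of the 40 had a start site inside a peak in all 4. For 34 of the 40 the promoter peak was also the highest-scoring one in every list. Macrophage identity was checked on the same lists. All 8 macrophage markers, Csf1r and Spi1 among them, had promoter peaks in every list, and none of the 3 fibroblast, 3 epithelial or 4 T cell markers had one in any list. Of the 4 B cell markers 1, Ms4a1, had a promoter peak in every list, and 1 of 4 neutrophil markers had one in Control alone. By the 10 kb rule the check was less clean. A peak in all 4 lists was then found for 2 of 4 T cell markers, Cd3g and Cd4, each at 82.0 in Control. The same held for 2 of 4 B cell markers, Cd79a (91.1 in Control) and Ms4a1 (89.3), and for 1 of 4 neutrophil markers. It held for 0 of the fibroblast and epithelial markers. The IFNγ-induced chemokine gene Cxcl9 ranked at the 32.5th percentile in Control and the 52.9th in PJ34, and at the 91.2nd and 92.3rd in IFNγ and IFNγ+PJ34.

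Because the depth of the libraries is not given in the lists, peak scores were compared as percentiles within their own list, where 100 is the highest score. The median percentile of the 40 genes' top peaks was 95.8 for Control (order-statistic 95% interval 94.6 to 97.8), 94.6 for IFNγ (91.8 to 96.7), 95.3 for PJ34 (91.1 to 97.1) and 96.6 for IFNγ+PJ34 (93.8 to 98.3). The medians over all genes with a peak were 86.2, 85.0, 87.1 and 82.9, and those of the 10479 genes with a promoter peak in all 4 lists, called marked genes here, were 88.0, 86.8, 88.8 and 84.8. In each list the interval for the 40 genes lay above the median of all genes and of marked genes. A percentile of 90 or more in all 4 lists was found for 26 of the 40 (65%), and of 80 or more for 35 (87.5%). Of the 11767 genes with peaks in all 4 lists, 24.5% and 51.4% reached these values.

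**Figure D1:**
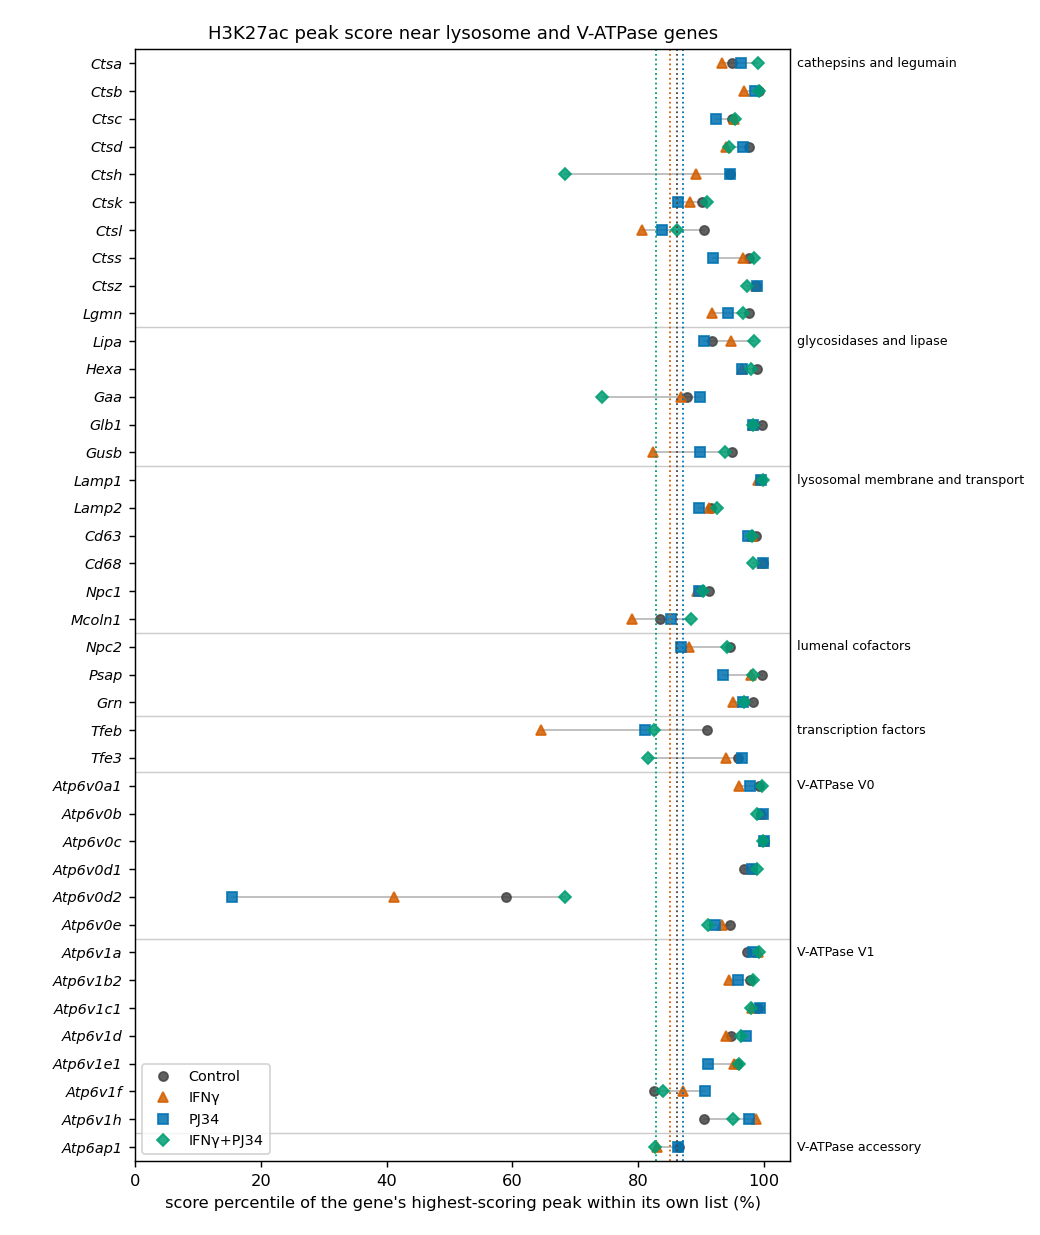
Score percentile of each gene's highest-scoring H3K27ac peak within 10 kb of a start site, in its own list, for the 4 lists (symbols), with the genes grouped by role and the median of all genes as dotted lines. Most genes lie to the right of the dotted lines in all 4 lists, and Atp6v0d2 spans the widest range, from 15.3 in PJ34 to 68.4 in IFNγ+PJ34.

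The length of DNA covered by peaks also set these genes apart. The median covered length within 10 kb was 5847 bp for Control (4654 to 8716), 4434 bp for IFNγ (2933 to 6777), 5399 bp for PJ34 (4038 to 8245) and 5675 bp for IFNγ+PJ34 (3838 to 8947), against 2265, 2007, 2156 and 1919 bp over all genes with a peak. A peak of 5 kb or more was present in all 4 lists for 10 of the 40 genes, against 1.25% of all genes, and in at least one list for 16. The extra length lay mostly on the transcribed side. At 2500 bp downstream of the outermost start site a peak covered 25 of the 40 genes (62.5%) in Control, 21 with IFNγ, 23 with PJ34 and 23 with both agents, against 14.4%, 12.2%, 13.9% and 11.6% of marked genes. At the same distance upstream 9 of the 40 were covered in Control, against 8.36% of marked genes.

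**Figure D2:**
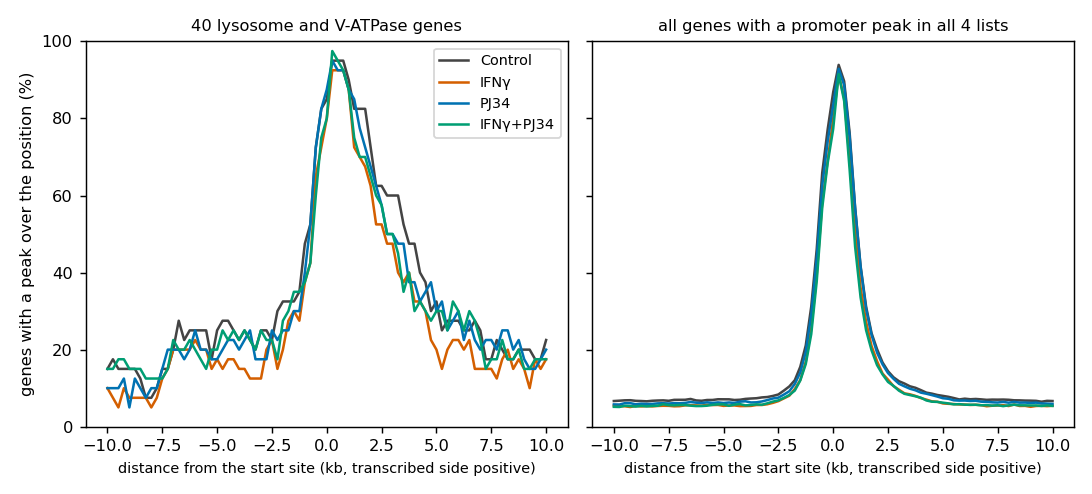
Share of genes (%) with an H3K27ac peak over each position from 10 kb upstream to 10 kb downstream of the outermost start site, for the 40 lysosome and V-ATPase genes (left) and all marked genes (right), with 1 line per list. At 2.5 kb downstream the 4 lines lie between 52.5% and 62.5% on the left and between 11.6% and 14.4% on the right.

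Among the cathepsins and legumain, the proteases of the lysosome, the longest covered lengths in Control were those of Ctsd, Lgmn, Ctss, Ctsk and Ctsb. That of Lgmn, 15424 bp, came from 9 peaks in a window of 36045 bp, against windows of 20001 to 20182 bp for the others named. Ctsd, the aspartic protease cathepsin D, had 16500 bp covered for Control, 14069 bp for IFNγ, 19319 bp for PJ34 and 16334 bp for IFNγ+PJ34. In Control this was a single peak of 19665 bp, and in IFNγ it was 7 peaks of which the widest had 5923 bp. Ctsb, the cysteine protease cathepsin B, lay under 1 peak of 14604 to 16750 bp in every list and ranked between the 96.9th and 99.3rd percentile. Ctsk, cathepsin K, known for its role in bone matrix degradation, had 12682 bp covered for Control, 5806 bp for IFNγ, 8245 bp for PJ34 and 10504 bp for IFNγ+PJ34. The IFNγ value was thus the lowest for Ctsk and the Control value the highest. Ctsl, encoding cathepsin L, likewise had its longest covered length in Control, at 5199 bp, and 2854, 3997 and 2447 bp in the other three. Ctsh, an aminopeptidase of the same family, ranked at 94.6 in Control cells, 89.3 with IFNγ, 94.7 with PJ34 and 68.4 with both agents. Its fold enrichment over input was 37.9, 29.0, 46.4 and 8.63, so IFNγ+PJ34 stood apart from the other three. Fold enrichments, here and below, are not set against their own list as the percentiles are. Lgmn, legumain, ranked between 91.8 in IFNγ and 97.7 in Control by a peak upstream of its promoter, and its promoter peak between 83.99 and 96.7. The others of the group, Ctsa, Ctsc, Ctss and Ctsz, ranked at 91.96 or more in every list.

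Of the glycosidases and the lipase, Lipa and Hexa lay in broad domains and Gaa in the narrowest. Lipa, the lysosomal acid lipase, was covered over 10060 to 10612 bp by 1 peak in each list. That peak ran past the window, with 16007 bp for Control, 16290 bp for IFNγ, 15448 bp for PJ34 and 12591 bp for IFNγ+PJ34. The covered length of Lipa is therefore limited by the window edge. Its percentile was 91.8 for Control, 94.8 for IFNγ, 90.5 for PJ34 and 98.4 for IFNγ+PJ34. In the same order the summit lay 335, 6174, 11268 and 7404 bp downstream of the start site, so these values do not rank 1 site. Hexa, the alpha subunit of beta-hexosaminidase, had 11763 to 14362 bp covered. Gaa, by contrast, had only 1001 to 1598 bp covered, and it ranked at 87.7, 86.8, 89.8 and 74.3 in the order Control, IFNγ, PJ34, IFNγ+PJ34. The beta-glucuronidase gene Gusb ranked at 95, 82.3, 89.8 and 93.7, lowest in IFNγ. Glb1, beta-galactosidase, ranked at 98.3 or more in all 4 lists on a covered length of only 1998 to 2760 bp.

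Apart from Mcoln1, the top peaks of the membrane and transport genes Lamp1, Lamp2, Cd63, Cd68 and Npc1 ranged over at most 2.88 percentile points between lists. The promoter peak of Cd68 ranged over 4.26 points. The ratio of longest to shortest covered length was 2.29 for Lamp1, 1.995 for Lamp2 and 1.70 for Npc1. It was smaller for Cd63 (1.32) and Cd68 (1.14). Lamp1 ranked at 99.0 or more in every list, yet its covered length was 6712 bp in Control cells, 2933 bp with IFNγ, 5686 bp with PJ34 and 6038 bp with both agents. Its promoter peak in IFNγ was 1806 bp wide, whereas the Control and PJ34 promoter peaks had 3087 and 3248 bp. A piece of 613 bp upstream of its start site (chr8:13158454-13159066) was a separate peak at the 76.4th percentile in IFNγ+PJ34 and overlapped no peak in IFNγ. Lamp2, whose product also serves chaperone-mediated autophagy, had 5714 bp covered for Control, 3941 bp for IFNγ, 3685 bp for PJ34 and 7351 bp for IFNγ+PJ34. IFNγ+PJ34 was thus the highest for Lamp2, in contrast to Lamp1. Cd68 and Cd63, a macrophage sialomucin and a tetraspanin of late endosomes, ranked at 97.5 or more in every list. For Cd68 this was the rank of a peak further upstream, not at its promoter, in 3 of the 4 lists. The promoter peak of Cd68 ranked at 99.1, 95.5, 99.8 and 96.1 in the order Control, IFNγ, PJ34, IFNγ+PJ34. In PJ34 that promoter peak was 11151 bp wide, and its summit also lay upstream. The coding genes Eif4a1 and Mpdu1 start within the Cd68 window as well. Which of these genes the upstream signal belongs to was not tested. Mcoln1, the lysosomal calcium channel TRPML1, ranked lowest in this group, between 79.0 and 88.4. Npc1, which passes cholesterol out of the lysosome, ranked between 89.4 and 91.2.

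The lumenal cofactor gene Psap, encoding the precursor of the saposins that assist sphingolipid breakdown, had the longest covered length of the 40 genes in every list, and its several start sites give it a longer window than most. It measured 23158 bp for Control, 18906 bp for IFNγ, 21261 bp for PJ34 and 21190 bp for IFNγ+PJ34. Grn, the gene of progranulin, had 7959 to 10119 bp covered, and again IFNγ was lowest and Control highest. Npc2, which hands cholesterol to Npc1, ranked between 86.8 in PJ34 and 94.6 in Control.

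The transcription factor genes were among the more variable. Tfeb ranked at 90.9 in Control cells, 64.5 with IFNγ, 81.0 with PJ34 and 82.5 with both agents, with fold enrichments over input of 32.0, 6.16, 19.6 and 20.8. Its covered length was 3707, 2208, 2367 and 2274 bp, so Control was above the other three on both measures and IFNγ was lowest in rank. Tfe3 ranked at 95.8, 94.0, 96.4 and 81.5, lowest in IFNγ+PJ34.

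The V-ATPase genes held both the narrowest and the widest range of percentiles among the 40 genes. Atp6v0c, which encodes the proton-conducting c subunit of the V0 ring, ranked at the 99.9th percentile or above in all 4 lists on 10687 to 11446 bp. The percentile is at its ceiling there, and the fold enrichment of the same peak was 118.8 for Control, 91.9 for IFNγ, 88.4 for PJ34 and 65.8 for IFNγ+PJ34. These fold values are not set against their own lists. Whether a shift of the whole list enters them was not tested. Atp6v0d2, the d subunit isoform known from osteoclasts and macrophages, was at 58.9 for Control, 41.2 for IFNγ, 15.3 for PJ34 and 68.4 for IFNγ+PJ34. This top peak had its summit 3180 to 3884 bp downstream of the start site, and the promoter peak ranked at 42.8, 24.3, 15.3 and 59.4. In PJ34 the top peak had only 264 bp and a score of 12, where the lowest of that list is 10. The covered length of Atp6v0d2 was 3757, 1731, 1156 and 5859 bp, so PJ34 was lowest and IFNγ+PJ34 highest in rank and in length. Its fold enrichments, 8.64, 4.98, 2.99 and 10.4, were the lowest of the list in Control, IFNγ and PJ34. The other d subunit gene, Atp6v0d1, ranked at 96.8, 98.1, 98.1 and 99.0 on only 2019 to 2929 bp. In the V1 sector, Atp6v1h, a regulatory subunit gene, ranked at 90.5 in Control cells, 98.7 with IFNγ, 97.7 with PJ34 and 95.04 with both agents, and it was 1 of only 3 genes whose covered length was longer in IFNγ than in Control. Atp6v1c1, encoding the C subunit, had 5730 bp covered for Control, 2731 bp for IFNγ, 4206 bp for PJ34 and 3944 bp for IFNγ+PJ34. Atp6v1b2, the widely expressed B subunit isoform, had 5863, 5102, 6506 and 8640 bp. Atp6v1a, the catalytic A subunit gene, ranked at 97.2 or more in every list, whereas Atp6v1f and the accessory Atp6ap1 ranked lower, between 82.6 and 90.7 and between 82.7 and 86.5.

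Across the 4 lists the rank of these genes varied less than that of other genes. The median difference between a gene's highest and lowest percentile was 3.77 points for the 40 (interval 2.88 to 6.23), 9.13 for the 11767 genes with peaks in all 4 lists and 8.75 for marked genes. A difference of 15 points or more was seen in 4 of the 40 (Atp6v0d2, Tfeb, Ctsh and Gaa), that is 10%, against 26.8% of all genes. Percentiles near 100 leave little room to move, and the part of this ceiling in the smaller range was not tested. The ratio of longest to shortest covered length was closer to the rest, with a median of 1.38 (interval 1.32 to 1.58) against 1.44 over all genes.

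**Figure D3:**
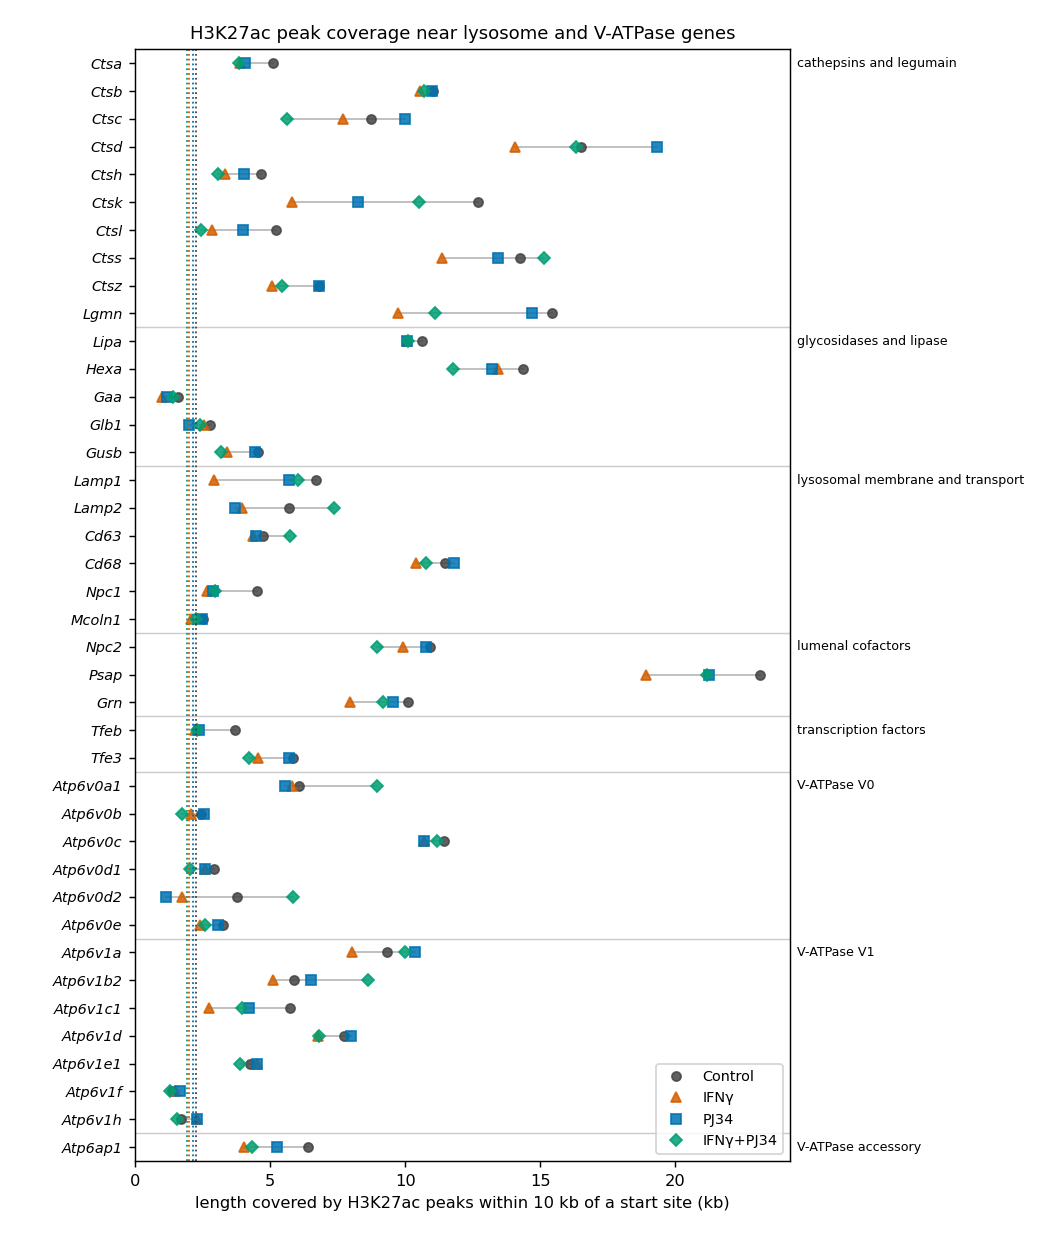
Length (kb) covered by H3K27ac peaks within 10 kb of a start site of each gene, in the 4 lists (symbols), with the median of all genes as dotted lines. Control was longest for 24 of the 40 genes (60%), against 45.7% of marked genes, and IFNγ shortest for 21 (52.5%), against 31.8%.

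The comparison of IFNγ with Control addresses what 1 hour of the cytokine did without the inhibitor. Peaks were narrower in the IFNγ list as a whole, with a median width of 647 bp against 732 bp in Control. The covered length was shorter in IFNγ for 37 of the 40 genes (92.5%) and longer for 3, against 75.8% of all genes shorter, with a median ratio of 0.821, and the median ratio over all genes was 0.874. Relative to all genes the log2 difference was -0.09 (interval -0.23 to 0.02), which includes 0. For the 24 genes with no other coding gene starting in their window it was -0.23 (interval -0.55 to -0.10). This subset was chosen after seeing the data. Its reference was still the median of all genes, with or without such a neighbour. A covered length at least 1.5-fold shorter was seen in 10 of the 40, Lamp1 (ratio 0.437), Ctsk (0.458), Atp6v0d2 (0.461) and Atp6v1c1 (0.477) with the lowest ratios, against 18.4% of all genes. None was at least 1.5-fold longer, against 2.78%. The median of the per-gene differences in percentile from Control was -1.47 for the 40 (interval -2.47 to -0.71) and -1.29 for all genes. For the 40 it was -2.73 when only the higher-scoring 50% of peaks were kept and -0.106 when peaks were ranked by width. The percentile was at least 10 points lower in 3 genes, Tfeb, Atp6v0d2 and Gusb, against 14.0% of all genes, and at least 10 points higher in 0, against 4.10%. In Control 35 of the 40 were already at 90 or more and could not rise by 10 points. The 0 was thus largely fixed beforehand.

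Peaks found in only one of these 2 lists were then counted. A Control peak that overlapped no IFNγ peak, called lost, was found near 21 of the 40 genes (52.5%), against 18% of all genes and 27.9% of marked genes. A gained peak was found near 7 of the 40, against 8.53% of all genes. Counted over peaks, which takes account of the larger number of peaks near these genes, 38 of 133 Control peaks were lost (28.6%, Clopper-Pearson interval 21.1 to 37.1), against 22.6% near all genes, and 8 of 146 IFNγ peaks were gained (5.48%, interval 2.40 to 10.5), against 9.83%. The lost peaks were weak, with a median percentile of 11.5, and many lay beside a peak of the other list. With a peak within 1 kb also taken as shared, 13 of the 40 genes had a lost peak, against 10.6% of all genes, and 0 had a gained peak, against 4.53%. The highest-scoring lost peaks were intergenic at Atp6v1c1 (chr15:38652300-38653678, 61.4th percentile), in a Ccdc40 intron upstream of Gaa (chr11:119258540-119259261, 53.6th) and upstream of Lamp2 (chrX:38460791-38461646, 47.2nd). Each of the 3 overlapped a peak in PJ34 and in IFNγ+PJ34.

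The comparison of PJ34 with Control addresses the inhibitor in the absence of IFNγ. The covered length was shorter in PJ34 for 29 of the 40 genes (72.5%, against 59.1% of all genes), with a median ratio of 0.945 against 0.962 over all genes, and the log2 difference from all genes was -0.02 (interval -0.12 to 0.03). It was at least 1.5-fold shorter in 5 genes, Atp6v0d2 (ratio 0.308), Npc1, Tfeb, Lamp2 and Ctsk, against 9.80% of all genes, and at least 1.5-fold longer in 0, against 3.24%. Taken per gene, the median difference in percentile from Control was -1.30 points for the 40 (interval -1.90 to -0.01) and 0.62 points for all genes. Ranked by width, the difference for the 40 turned to 0.115, and it was -2.57 with only the higher-scoring 50% of peaks. It was -2.07 for the 24 genes without another start in the window, a subset chosen after seeing the data. Only Atp6v0d2 was lower by 10 points or more, against 5.96% of all genes, and 0 were higher by as much, against 6.30%. Here too the 35 genes at 90 or more in Control could not rise by 10 points. A lost peak was found near 17 of the 40, against 14.3% of all genes and 22.6% of marked genes, and a gained peak near 13, against 11.3% and 17.6%. Over peaks, 25 of 133 Control peaks were lost (18.8%, interval 12.5 to 26.5; all genes 17.0%) and 20 of 140 PJ34 peaks were gained (14.3%, interval 8.95 to 21.2; all genes 13.1%). These shares near the 40 genes were close to those near all genes. With peaks within 1 kb taken as shared, 9 genes had a lost peak, against 7.60%, and 4 had a gained peak, Ctsc, Ctsd, Ctsz and Lgmn, against 5.26%.

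The comparison of IFNγ+PJ34 with IFNγ addresses the inhibitor in the presence of the cytokine. Here the covered length was longer for 26 of the 40 genes (65%, against 44.6% of all genes) and shorter for 14, with a median ratio of 1.05 against 0.972 over all genes, and the log2 difference from all genes was 0.12 (interval 0.02 to 0.23). A covered length at least 1.5-fold longer was found in 6 of the 40, against 8.15% of all genes. They were Atp6v0d2 (ratio 3.38), Lamp1 (2.06), Lamp2 (1.86), Ctsk (1.81), Atp6v1b2 (1.69) and Atp6v0a1 (1.54), the last of which encodes the a subunit of V0. None was at least 1.5-fold shorter, against 9.62%. Taken per gene, the median difference in percentile was 0.86 points for the 40 (interval 0.00 to 2.37) and -1.16 for all genes. Atp6v0d2, Tfeb and Gusb were higher by 10 points or more, against 10.1% of all genes, and Ctsh, Tfe3 and Gaa were lower by as much, against 14.4%. In IFNγ 28 of the 40 were at 90 or more and could not rise by 10 points.

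A gained peak was found near 22 of the 40 genes (55%) in this comparison, against 14.7% of all genes and 22.7% of marked genes. A lost peak was found near 10, against 13.1% and 21.2%. Over peaks, 38 of 155 IFNγ+PJ34 peaks were gained (24.5%, interval 17.97 to 32.1), against 17.4% near all genes, and 11 of 146 IFNγ peaks were lost (7.53%, interval 3.82 to 13.1), against 16.0%. Both intervals leave out the value for all genes. They cover counting error only, and peaks of a gene are not independent. With a peak within 1 kb taken as shared, 11 genes had a gained peak, against 8.42% of all genes, and 1 gene, Npc1, had a lost peak, against 6.91%. The highest-scoring gained peak was the promoter piece of Lamp1 named above. Next came the intergenic peak of Atp6v1c1 (chr15:38652429-38653494, 53.0th percentile) and one 3000 bp upstream of Grn (chr11:102426894-102427481, 47.3rd). All 3 overlapped a peak in Control and in PJ34. The highest-scoring lost peak lay 6080 bp upstream of Ctsc (chr7:88271748-88272484, 62.9th percentile in IFNγ) and also had a counterpart in Control and PJ34.

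**Figure D4:**
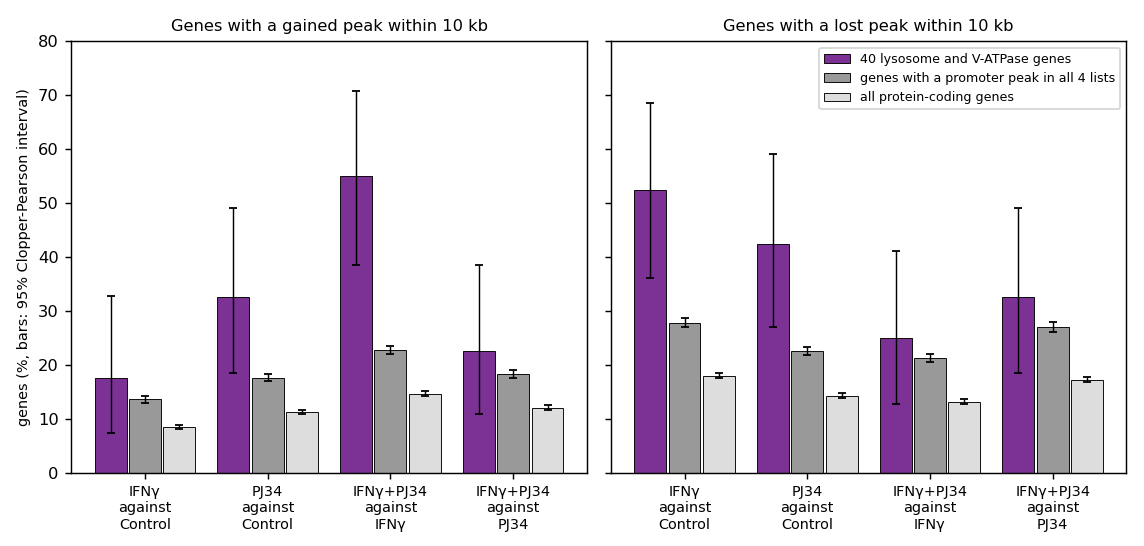
Share of genes (%) with a gained peak (left) or a lost peak (right) within 10 kb in the 4 comparisons, for the 40 lysosome and V-ATPase genes, marked genes and all genes, with 95% Clopper-Pearson intervals. The 40 genes reach 55% gained in IFNγ+PJ34 against IFNγ and 52.5% lost in IFNγ against Control, and their bars exceed those of all genes throughout. These shares are per gene and do not allow for the larger number of peaks near the 40 genes. Counted over peaks in IFNγ+PJ34 against IFNγ, 24.5% were gained, against 17.4% near all genes. By the same count 7.53% were lost, against 16.0%.

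The comparison of IFNγ+PJ34 with PJ34 addresses IFNγ in the presence of the inhibitor. The covered length was shorter for 27 of the 40 genes (67.5%), close to the 70.2% of all genes, with a median ratio of 0.925 against 0.881 over all genes, and the log2 difference from all genes was 0.07 (interval -0.08 to 0.18). Atp6v0d2 (ratio 5.07), Lamp2 (1.99) and Atp6v0a1 (1.61) were at least 1.5-fold longer, against 6.77% of all genes, and Ctsc (0.562) and Ctsl (0.612) at least 1.5-fold shorter, against 17.7%. Taken per gene, the median difference in percentile was 0.75 points for the 40 (interval -0.08 to 2.42) and -3.82 for all genes. Atp6v0d2 alone was higher by 10 points or more, against 6.79% of all genes, and Ctsh, Gaa and Tfe3 were lower, against 25.3%. In PJ34 29 of the 40 were at 90 or more and could not rise by 10 points. A gained peak was found near 9 of the 40, against 12.1% of all genes and 18.3% of marked genes, and a lost peak near 13, against 17.2% and 27.03%. Over peaks, 15 of 155 were gained (9.68%, interval 5.52 to 15.5; all genes 14.8%) and 25 of 140 were lost (17.9%, interval 11.9 to 25.2; all genes 22.5%). With a peak within 1 kb taken as shared, 5 genes had a gained peak, against 7.84%, and 5 a lost one, against 9.95%.

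The highest-scoring peaks absent from one list were again followed in this last comparison. Lamp2 had an upstream peak of 2557 bp in IFNγ+PJ34 (chrX:38465741-38468297, 79.0th percentile) that overlapped none in PJ34 and overlapped a peak in Control and in IFNγ. At Atp6v0d2 a peak of 537 bp next to the start site (chr4:19922794-19923330, 45.6th percentile) and another 4953 bp upstream (chr4:19927332-19927723, 38.4th) had no counterpart in the other three lists. The highest-scoring Atp6v0d2 peak of IFNγ+PJ34 was not among the gained ones. A Tfe3 peak at the promoter (chrX:7761829-7762485, 57.6th percentile in PJ34) overlapped none in IFNγ+PJ34 and overlapped peaks in Control and in IFNγ. The 4 comparisons share lists, so their values are given side by side and are not independent.

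When overlapping peaks of the 4 lists were merged, 139 regions lay within 10 kb of the 40 genes. Of these 79 (56.8%, interval 48.2 to 65.2) were present in all 4 lists, against 55.3% of regions near all genes. Regions present in a single list numbered 18 for Control (12.9%, against 9.31% near all genes), 13 for PJ34 (9.35%, against 7.09%), 9 for IFNγ+PJ34 (6.47%, against 6.59%) and 4 for IFNγ (2.88%, against 2.58%). Presence in all lists but IFNγ was found for 5 regions, near Atp6v1c1, Gaa, Lamp1, Psap and Tfe3 (3.60%, interval 1.18 to 8.20, against 2.51% near all genes). No merged region was present in all lists but Control (upper bound 2.62%, against 0.881% near all genes). Merging joins peaks that overlap in a chain, so a peak absent from a list can fall in a region counted as present there. At Atp6v1b2 an IFNγ peak (chr8:69081044-69081592) overlapped none in Control, but it overlapped peaks in PJ34 and IFNγ+PJ34. The Lamp2 and Grn peaks named above that were absent from IFNγ alone are likewise not among the 5 regions. Some patterns not listed above lay further apart. Presence in all lists but IFNγ+PJ34 made up 1.44% (interval 0.17 to 5.10), against 4.16% near all genes. Presence in PJ34 and IFNγ+PJ34 alone made up 2.16% (interval 0.45 to 6.18), against 0.774%. The interval of every pattern included the share near all genes, but these intervals are wide.

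Other genes of the pathway showed which paralogs were marked. Of 11 V-ATPase genes that were not on the list, 6 had a peak in all 4 lists, among them Tcirg1 (a3 subunit, 95.5 to 99.6) and Atp6v1g1 (93.2 to 98.8). Atp6v0a4, Atp6v0e2, Atp6v1b1 and Atp6v1c2, isoforms known mainly from other tissues such as kidney and brain, had no peak in any list. Isoforms known mainly from other tissues were not all without peaks, since Atp6v1g2, known from brain, had a promoter peak in all 4 lists (89.4 to 95.6). Atp6v1g3, known from kidney, had a peak in all 4 lists (67.7 to 87.2) and a promoter peak in Control and IFNγ+PJ34. Atp6v1e2 had no promoter peak in any list. Of 37 other lysosomal genes 34 had a promoter peak in all 4 lists, and those without were Acp5, Ctsf and Sort1. Their median percentile came to 90.04 (Control), 86.5 (IFNγ), 85.4 (PJ34) and 91.5 (IFNγ+PJ34). In IFNγ against Control 8 of 36 were lower by 10 points or more and 0 higher, and in PJ34 against Control 6 of 36 were lower and 0 higher. Any of these genes already at 90 or more could not rise by 10 points. In IFNγ+PJ34 against IFNγ 1 of 34 was lower and 8 higher, and in IFNγ+PJ34 against PJ34 2 of 34 were lower and 6 higher. The shares of all genes given above for these differences, in the same order, were 14.0% lower and 4.10% higher, 5.96% and 6.30%, 14.4% and 10.1%, and 25.3% and 6.79%. All 10 regulators of the TFEB family and of mTORC1 had a promoter peak in every list. The longer covered length in IFNγ+PJ34 against IFNγ was not particular to the 40 genes. Their median log2 difference from all genes was 0.12. It was 0.165 for the other lysosomal genes, 0.251 for these regulators and 0.254 for the V-ATPase genes not on the list.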

How the data were processed

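H3K27ac ChIP-seq of BMDMs comprised 8 immunoprecipitated and 8 input samples, 2 of each per condition. The authors aligned reads to mm10 with Bowtie, called peaks with MACS against input at a p threshold of 0.01, and deposited for each condition 1 list of peaks found in both replicates. The submitters' processing notes also name bedtools. Per the methods, the deposited columns hold a score, a fold enrichment (ratio over input), a -log10 p, a -log10 q and a summit offset. The lists held 43533 (Control), 40708 (IFNγ), 44090 (PJ34) and 42960 (IFNγ+PJ34) peaks. Read depth is not given in them.

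Start sites were taken from GENCODE M21 basic, on the same build. From each list were computed the presence of a peak within 10 kb, the score percentile of the top peak within its own list (ties at their mean rank), and the bases covered within 10 kb of the start sites. Genes with several start sites have longer windows. A peak was absent from the other list when it shared no base with a peak there. Differences of 10 percentile points and 1.5-fold in covered length were called. No test across replicates was made, because the lists used hold 1 set of peaks per condition. Shares carry exact Clopper-Pearson and medians order-statistic 95% intervals, which cover counting error only. The genes and lists were chosen with earlier results of these data known. Genes are named from the 40 by role, and single peaks are the 3 highest-scoring ones per comparison and direction. Of the 40, 16 have another coding gene starting in their window, and 0 share a peak with one another. Functions were tested on simulated peaks (Python 3.11.15, NumPy 2.4.6, SciPy 1.17.1, Matplotlib 3.10.9). Alternatives are listed in the closing section.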

Additional observations from a re-analysis of the deposited data

Results flagged for a closer look

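Of the 139 merged regions near the 40 genes, 2 were present in Control and IFNγ+PJ34 alone. These regions were absent with IFNγ in the cells without the inhibitor and present with IFNγ in the cells with it, so the lists differed in opposite directions; the difference was not tested, since each condition has 1 list. One is in the body of Cd63 (chr10:128907447-128907766), at the 32.5th percentile in one list and the 21.9th in the other. The second lies upstream of Lamp2 (chrX:38462341-38462713), at the 31.8th and the 11.5th. Both are weak peaks, and among regions near all genes this pattern made up 2.31%, against 1.44% near the 40 genes.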

How the results depend on the processing

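No paired analysis was possible because each condition has 1 list made from both replicates, and single replicates could not be left out either. Counts of gained and lost peaks depend on how a peak is called shared and on the distance searched, and read depth, which is not given, limits what an absent peak means. Of 290 alternative values of 34 results, 228 stayed within the interval, or within 1.5 times the count, of the value reported. A q under 0.01, lists of equal length, ranking by fold enrichment, assignment by summit and a start site inside the peak moved none beyond this. All 40 genes had a peak in every list under each alternative but the higher-scoring 50% of each list and assignment by summit, where 39 and 39 did. Within 5 kb, genes with a gained peak numbered 4 (IFNγ against Control), 7 (PJ34 against Control), 12 (IFNγ+PJ34 against IFNγ) and 5 (IFNγ+PJ34 against PJ34), genes with a lost peak 6 (IFNγ+PJ34 against IFNγ), and the share absent was 7.53% of PJ34 peaks absent from Control. Within 50 kb, covered lengths were 13507 bp (Control), 8359 bp (IFNγ), 9862.5 bp (PJ34) and 11159 bp (IFNγ+PJ34), gained counts 18 (IFNγ against Control), 25 (PJ34 against Control), 34 (IFNγ+PJ34 against IFNγ) and 25 (IFNγ+PJ34 against PJ34), lost counts 36 (IFNγ against Control), 30 (PJ34 against Control), 22 (IFNγ+PJ34 against IFNγ) and 33 (IFNγ+PJ34 against PJ34), and shares 26.8% of Control peaks absent from PJ34, 13.3% of IFNγ peaks absent from IFNγ+PJ34 and 17.8% of IFNγ+PJ34 peaks absent from PJ34. In the higher-scoring 50% of each list, median percentiles were 91.6 (Control), 89.6 (IFNγ) and 93.2 (IFNγ+PJ34), gained counts 3 (IFNγ against Control), 4 (PJ34 against Control) and 10 (IFNγ+PJ34 against IFNγ), the lost count 8 (PJ34 against Control), shares 5.06% of PJ34 peaks absent from Control and 11.2% of Control peaks absent from PJ34, and the median percentile difference -2.73 (IFNγ against Control) and -2.57 (PJ34 against Control). With an overlap of 50% of the peak required, shares absent were 39.1% of Control peaks absent from IFNγ, 28.6% of Control peaks absent from PJ34, 34.8% of IFNγ+PJ34 peaks absent from IFNγ, 14.4% of IFNγ peaks absent from IFNγ+PJ34 and 18.7% of IFNγ+PJ34 peaks absent from PJ34, and the gained count 15 (IFNγ+PJ34 against PJ34). With a peak within 1 kb taken as shared, shares were 0% of IFNγ peaks absent from Control, 10.5% of Control peaks absent from IFNγ, 6.43% of PJ34 peaks absent from Control, 8.27% of Control peaks absent from PJ34, 8.39% of IFNγ+PJ34 peaks absent from IFNγ, 0.685% of IFNγ peaks absent from IFNγ+PJ34, 5.16% of IFNγ+PJ34 peaks absent from PJ34 and 5.71% of PJ34 peaks absent from IFNγ+PJ34, gained counts 0 (IFNγ against Control), 4 (PJ34 against Control), 11 (IFNγ+PJ34 against IFNγ) and 5 (IFNγ+PJ34 against PJ34) and lost counts 13 (IFNγ against Control), 9 (PJ34 against Control), 1 (IFNγ+PJ34 against IFNγ) and 5 (IFNγ+PJ34 against PJ34). Ranked by width, the median difference was -0.106 (IFNγ against Control), and 0.115 (PJ34 against Control), where its sign turned. By the widest peak, lengths were 3714 bp (Control), 3748.5 bp (PJ34) and 3528.5 bp (IFNγ+PJ34). Chosen after seeing the data, ranking by -log10 p moved none, and the 24 genes with no other coding gene starting in their window gave 37.9% of Control peaks absent from IFNγ, a covered-length difference of -0.23 (IFNγ against Control) and a percentile difference of -2.07 (PJ34 against Control). Leaving out genes that share a peak with another left all 40. The cause of these movements was not tested, beyond the distance, overlap or subset that each setting itself sets.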
